A study of Homo sapiens with 8 samples.

Results

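A set of 54 genes that encode RNA processing, RNA decay and N6-methyladenosine (m6A) machinery was examined among the peaks of a METTL3 RNA immunoprecipitation (RIP-seq) experiment in 2 human prostate cancer cell lines. The members were listed by gene symbol, and a peak was given to a member when the GRCh38 span of its gene held the whole peak. All 54 symbols were found among 19974 protein-coding genes, PRPF4B through its older name. They held 91 of the 2616 peaks of the LNCaP list and 38 of the 1033 peaks of the PC3 list. By role, 20 members act in splicing, 13 in RNA decay and small RNA pathways, 11 in the m6A pathway, 7 in transcription and 3′ end formation and 3 in translation.

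LNCaP cells respond to androgen and PC3 cells grow without it; both were grown in RPMI medium with serum, at a higher serum share for LNCaP. METTL3 immunoprecipitates and their inputs were sequenced in 2 replicates for each line, 8 libraries in 4 groups, from a stranded mRNA kit. An IgG control is described in the labels, and no IgG library was analysed here. The files used hold 1 peak list per line, so no value below has an error between replicates, and the depth of the libraries is unknown. Among genes that mark LNCaP, TMPRSS2 and FOLH1 had a peak in LNCaP and none in PC3, and 0 of 5 genes that mark PC3 had one in either list. A peak list holds no expression level, so this does not check the identity of the lines.

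Most m6A on messenger RNA is deposited by a nuclear complex in which METTL3 is the catalytic subunit and METTL14 its RNA-binding partner, with WTAP, VIRMA and ZC3H13 as regulatory subunits. FTO and ALKBH5 remove the mark, and proteins with a YTH domain bind it and influence splicing, export, translation and decay. Splicing is carried out by the spliceosome, whose U5 particle contains the large scaffold PRPF8 and the helicase SNRNP200, and it takes place largely while RNA polymerase II is still transcribing. The peaks report on the transcripts of these genes, not on their proteins.

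Several splicing members carried a peak across or next to the annotated start of the gene, and the bases there are shown to place the peak at the gene start. Each line gives 70 bases before and 30 bases from the start annotated in RefSeq on GRCh38.p14, 5′ to 3′ on the strand of the gene, and capitals mark the bases inside the peak.
SRRM2, LNCaP peak (chr16:2752568-2752667, plus strand): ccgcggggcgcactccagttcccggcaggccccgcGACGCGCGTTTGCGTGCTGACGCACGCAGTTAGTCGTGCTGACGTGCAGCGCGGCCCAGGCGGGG
SRRM2, PC3 peak (same bases): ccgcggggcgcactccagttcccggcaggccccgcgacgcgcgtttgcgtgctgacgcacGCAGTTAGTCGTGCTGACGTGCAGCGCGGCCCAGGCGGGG
PRPF8, LNCaP and PC3 peaks (chr17:1684838-1684937, minus strand): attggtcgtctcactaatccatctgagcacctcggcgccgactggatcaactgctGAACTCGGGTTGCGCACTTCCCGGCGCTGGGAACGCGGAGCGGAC
U2AF2, LNCaP peak (chr19:55654965-55655064, plus strand): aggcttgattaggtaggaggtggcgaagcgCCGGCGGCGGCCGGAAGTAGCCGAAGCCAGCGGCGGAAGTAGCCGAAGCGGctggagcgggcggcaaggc
DDX23, PC3 peak (chr12:48852134-48852233, minus strand): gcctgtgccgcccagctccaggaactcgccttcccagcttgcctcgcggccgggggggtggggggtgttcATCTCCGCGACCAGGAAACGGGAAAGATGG
The peaks at SRRM2, PRPF8 and U2AF2 begin before the annotated start, so they are not held whole by the gene span and are not among the counted member peaks. The motif GGACT is a strong form of the sequence that the METTL3 complex methylates. It was searched on both strands of the 300-base RefSeq windows around these 4 starts and was found in none of them. Of all 27195 such windows, 44.2% hold it on either strand and 25.2% on the strand of the gene. Its absence from these 4 windows was not tested. The search covered the windows and not the whole peaks, and the DDX23 peak spans 4827 bp. Whether the peaks hold the motif is therefore not known.

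In LNCaP, 28 of the 54 members (51.9%) held at least 1 peak, where 5.62% of all protein-coding genes did. In PC3, 11 members (20.4%) held one, where 1.83% of all protein-coding genes did. Since long genes have more room for a peak, each member was also set beside the other genes whose span differed from its own by at most 25%, as the ratio of the longer to the shorter. On average 7.31% of these like-length genes had a peak in LNCaP and 2.55% in PC3. Genes were matched on span alone and not on expression, which the lists do not hold. Genes not expressed in a line may therefore be among those compared. The members were proposed with earlier results of these lists in view, so these shares are a description and were not tested.

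The roles differed in how many of their members had a peak. Splicing members had one in 15 of 20 cases in LNCaP and 7 of 20 in PC3, beside like-length shares of 5.83% and 1.98%. Transcription and 3′ end members had one in 4 of 7 and 3 of 7 (like-length 6.21% and 2.25%), and translation members in 2 of 3 and 1 of 3 (7.57% and 2.15%). Decay and small RNA members had a peak in 5 of 13 cases in LNCaP and 0 of 13 in PC3 (10.5% and 3.96%). The m6A members had one in 2 of 11 and 0 of 11 (6.82% and 2.23%). The groups hold 3 to 20 members, and the differences between roles were not tested. At such low like-length shares, a PC3 count of 0 does not set a group of 11 or 13 apart from other genes.

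**Figure D1:**
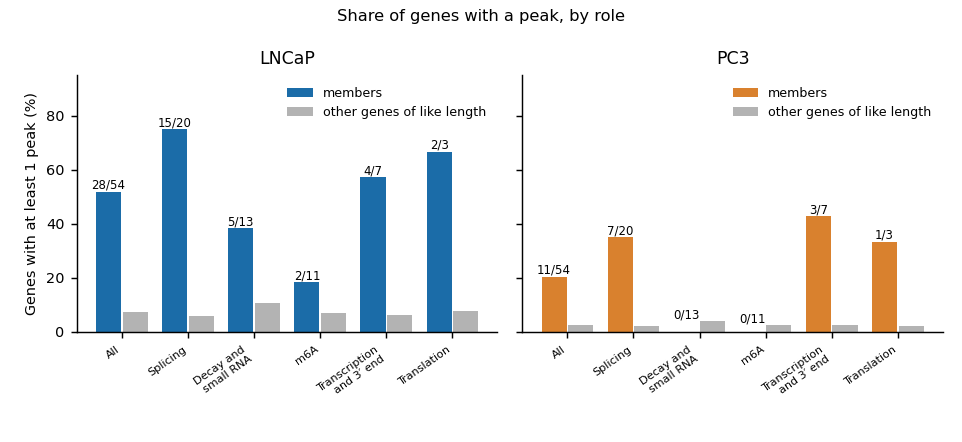
Bars give the percentage of genes with at least 1 peak, for all members and for each role, beside the mean share among other protein-coding genes with a span within 25% of each member's. LNCaP is on the left and PC3 on the right, and the numbers above the bars are members with a peak over members in the group. Splicing stands at 15 of 20 in LNCaP and 7 of 20 in PC3, and the decay and m6A groups are at 0 in PC3.

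Peaks in both lists were held by 10 members. These were SRRM1, SRRM2, PRPF8, SNRNP200, PRPF6, DDX23, SCAF4, SUPT6H, POLR2A and EIF4G1, where 1.16% of all protein-coding genes had peaks in both. A further 18 members had peaks in LNCaP only, HNRNPUL1 had them in PC3 only, and 25 had none. The single-list members were not tested between the lines, and the lists end at different p-values. The largest p was 0.0178 in LNCaP and 1.59e-05 in PC3. At or under the PC3 limit, 7 members (13.0%) kept a peak in LNCaP, where 1.33% of all protein-coding genes and 1.78% of like-length genes did. These 7 were SRRM2, PRPF8, SNRNP200, U2AF2, HNRNPU, UPF1 and EIF4G1. Of them, U2AF2, HNRNPU and UPF1 had no peak in PC3, and HNRNPUL1 had none in LNCaP although that list admits larger p-values.

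**Figure D2:**
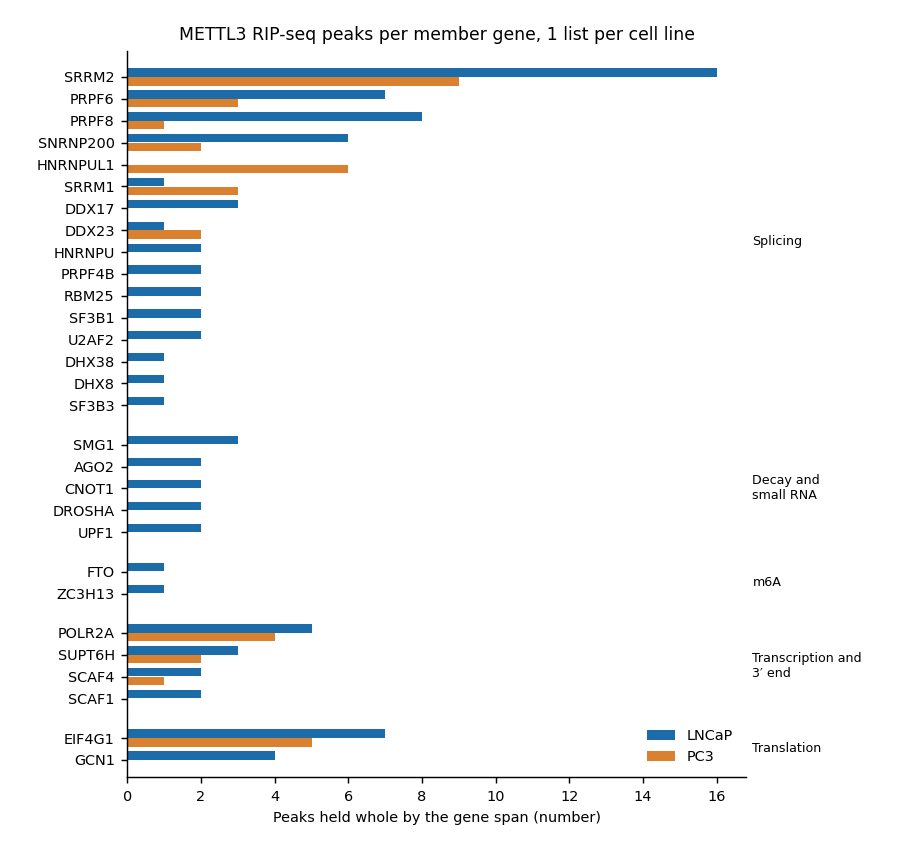
Bars count the peaks held whole by each of the 29 members with a peak, in LNCaP (blue) and PC3 (orange), ordered by role. SRRM2 has the most in both lists, 16 and 9, and HNRNPUL1 is the only member with peaks in PC3 alone.

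SRRM2, a serine- and arginine-rich protein that organises nuclear speckles and associates with the active spliceosome, held more peaks than any other member. It had 16 peaks in LNCaP, rank 3 among the 1122 genes with a peak, and 9 in PC3, rank 12 among 365, although its gene (chromosome 16, 2752638 to 2771412, plus strand) spans only 18775 bp. Of these peaks, 13 of the 16 in LNCaP overlapped a PC3 peak on the same strand, and all 9 in PC3 overlapped a LNCaP peak. The peak with the largest fold lay at 2765972 to 2766347 in LNCaP, with a fold of 10.6 and a p of 0.00142. In PC3 it lay at 2766097 to 2766547, with a fold of 13.6 and a p of 2.47e-15. These peaks shared 251 bp, between 71.7% and 73.0% of the way along the gene. The PC3 peak at 2762097 to 2763322 had a fold of 10.9 and covered a region where LNCaP had 4 short overlapping peaks with folds of 4.46 to 5.16. All folds and p-values given here are the authors' own, made separately for each list, and a fold is read as immunoprecipitate over input from the design. Folds are set side by side and not tested between lines.

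The peaks across the SRRM2 start nearly coincided. In LNCaP the peak covered 2752603 to 2752828 with a fold of 6.64, and in PC3 it covered 2752628 to 2752853 with a fold of 6.53. Both were 226 bp long. SRRM1, a related splicing coactivator, had 1 peak in LNCaP (chromosome 1, 24666868 to 24666918, plus strand, fold 7.67), which lay inside the PC3 peak at 24662750 to 24669365 (fold 3.90). PC3 had 2 more peaks on SRRM1, with folds of 4.13 and 3.35. SON, another large speckle protein, had no peak in either list.

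Among the splicing members with peaks in both lists were PRPF8, SNRNP200, PRPF6 and DDX23, which belong to the U5 particle or the tri-snRNP that carries it into the spliceosome. They are described together after their peaks were seen. PRPF8, the protein at the catalytic centre, had 8 peaks in LNCaP and 1 in PC3 (chromosome 17, minus strand). The LNCaP peaks included 5 with folds between 12.1 and 14.3, the largest at 1675785 to 1675950 (p 0.00112). They formed a pair of clusters, one at 1660704 to 1661921 and one at 1675785 to 1676327. Neither cluster held a PC3 peak. The PC3 peak, at 1683545 to 1684490 (fold 4.15, p 4.43e-09), shared its highest coordinate with the LNCaP peak nearest the start, at 1682256 to 1684490 (fold 5.39, p 1.36e-05). Both lists thus placed a PRPF8 peak near the start, and of the 7 LNCaP peaks further along, all but 1 had a p above the largest PC3 p.

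SNRNP200, the helicase that unwinds the U4/U6 duplex, had 6 peaks in LNCaP and 2 in PC3 (chromosome 2, minus strand). The largest LNCaP fold was 8.89, at 96289098 to 96289332. In PC3 a peak of 6312 bp at 96298415 to 96304726 (fold 6.42, p 3.49e-29) had the same lowest coordinate as a LNCaP peak of fold 6.96. This PC3 peak spanned most of what LNCaP split into 3 peaks. At the start of the gene, LNCaP had a peak at 96305425 to 96305515 (fold 6.36, p 2.90e-08), 31 bp into the gene, and PC3 had one at 96305400 to 96305450 (fold 5.40). The LNCaP peaks at 96287132 to 96288708 (fold 7.53) and 96289098 to 96289332, near the middle of the gene, met no PC3 peak.

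PRPF6, which bridges U5 to U4/U6, had 7 peaks in LNCaP with folds of 3.94 to 7.68 and 3 in PC3 with folds of 4.31 to 5.21 (chromosome 20, plus strand). The peak with the largest LNCaP fold, at 64027042 to 64027661 (7.68), overlapped the PC3 peak at 64027117 to 64027611 (4.31). From 64010277 to 64026992 LNCaP had 4 peaks and PC3 none. Conversely, PC3 had a peak of 9987 bp at 63984955 to 63994941 (fold 4.95), where LNCaP had a single 51 bp peak (fold 4.05). DDX23, a helicase of the same particle, had 1 peak in LNCaP (chromosome 12, 48837633 to 48839880, minus strand, fold 4.14, p 0.00603). It lay within the PC3 peak at 48836736 to 48847287 (fold 5.09, p 6.81e-29). A second PC3 peak (fold 3.91) ran up to the annotated start. EFTUD2, the U5 GTPase and not a member, had 1 peak in each list with the same lowest coordinate (chromosome 17, 44885280, minus strand). The EFTUD2 fold was 20.7 in LNCaP and 4.54 in PC3. PRPF3, a U4/U6 protein of the tri-snRNP and likewise not a member, had 2 peaks in LNCaP and none in PC3. PRPF4 and PRPF31, of the same complex and the same comparison list, had no peak in either list.

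The other splicing members had peaks in 1 list. U2AF2, which binds the polypyrimidine tract, had 2 counted peaks in LNCaP with folds of 6.55 and 4.21. SF3B1 and SF3B3, subunits of the U2 particle, had 2 peaks (4.65 and 4.89) and 1 peak (7.22). HNRNPU, an abundant nuclear RNA-binding protein, had 2 LNCaP peaks in the first 5.18% of the gene, with folds of 3.95 and 4.56 and the smallest p of all LNCaP member peaks, 7.20e-09. DDX17, an RNA helicase, had 3 peaks (4.25 to 6.02). PRPF4B, a spliceosome-associated kinase, and RBM25, a regulator of splice site choice, had 2 each (4.24 and 4.36, and 4.04 and 4.43). DHX8 and DHX38, the helicases of mRNA release and of the second splicing step, had 1 each (4.16 and 3.71). HNRNPUL1, a relative of HNRNPU, had 6 peaks in PC3 with folds within a narrow range of 4.78 to 5.51, and none in LNCaP. DHX9, DHX15 and DDX46 had no peak.

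**Figure D3:**
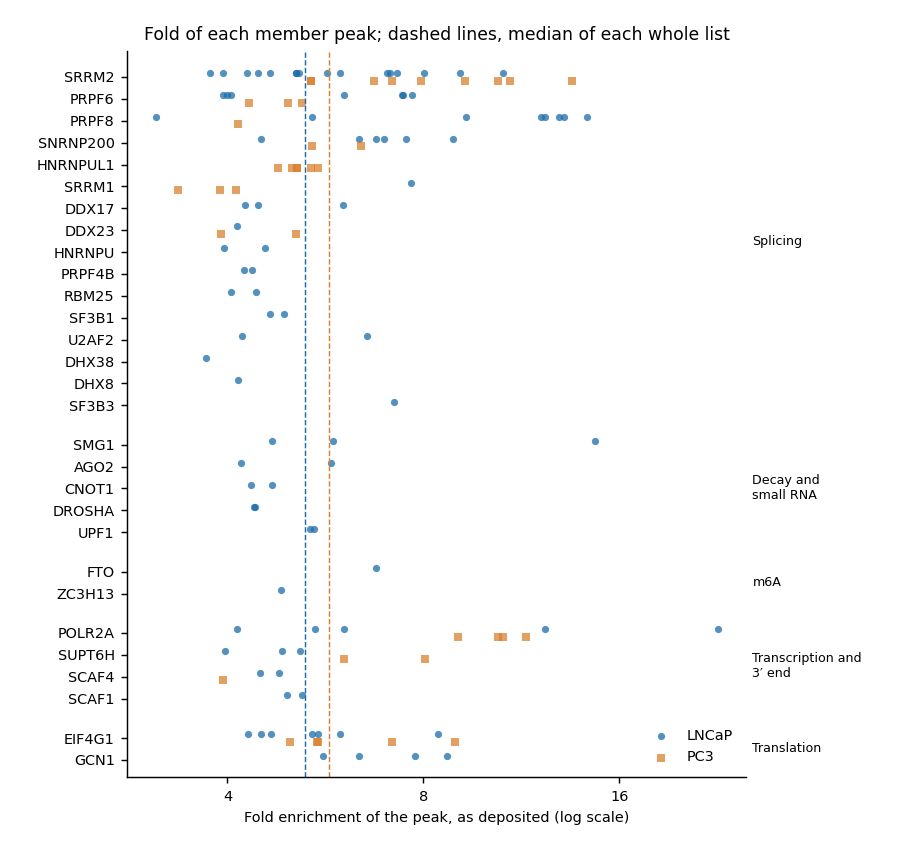
Each point is the deposited fold enrichment of 1 member peak on a log scale, for LNCaP (blue circles) and PC3 (orange squares), with dashed lines at the median of each whole list (5.26 and 5.74). The PRPF8 peaks between 12.1 and 14.3 in LNCaP and the POLR2A peaks above 9 in PC3 lie to the right of both lines.

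POLR2A, the largest subunit of RNA polymerase II, held the member peak with the largest fold. A 51 bp peak at 7503148 to 7503198 (chromosome 17, plus strand) had identical bounds in both lists. Its fold was 22.7 in LNCaP (p 0.00105) and 9.03 in PC3 (p 3.84e-06). POLR2A had 5 peaks in LNCaP and 4 in PC3, and in both lists the others lay beyond 81.6% of the gene. At 7509137 to 7511285 the LNCaP fold was 12.3, and the overlapping PC3 peak at 7509037 to 7511571 had 10.4. Toward the end, 3 short LNCaP peaks with folds of 6.03, 5.45 and 4.14 lay inside 1 PC3 peak at 7513023 to 7513948 with a fold of 10.6 (p 1.08e-26). The PC3 peak at 7512851 to 7512901 (fold 11.5) met no LNCaP peak.

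SUPT6H, a histone chaperone that travels with elongating polymerase, had 3 LNCaP peaks and 2 PC3 peaks (chromosome 17, plus strand). The LNCaP peak at 28673392 to 28676174 had a fold of 5.17 and the PC3 peak at 28673417 to 28676324 had 6.04. The PC3 peak with the largest SUPT6H fold, 8.06 at 28683803 to 28684697, was not matched in LNCaP. SCAF4, which binds the polymerase tail and restrains early termination, had peaks at the end of the gene in both lists (chromosome 21, minus strand). They lay at 31671582 to 31671632 (fold 4.79) and 31671907 to 31671957 (4.49) in LNCaP and at 31671632 to 31671707 (3.94) in PC3. The overlap of the first with the PC3 peak is a single base. SCAF1 had 2 LNCaP peaks with folds of 5.22 and 4.94. CPSF1 and PCF11, factors of cleavage and polyadenylation, and SCAF8 had no peak.

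EIF4G1, the scaffold of the cap-binding complex in translation initiation, was the member with the closest match between the lists. All 7 LNCaP peaks and all 5 PC3 peaks overlapped a peak of the other list (chromosome 3, plus strand). The peak at 184319230 to 184320345 had identical bounds and folds of 4.50 (LNCaP) and 5.51 (PC3). The peak at 184322828 to 184327868 in PC3 had a fold of 8.95 and a p of 2.48e-54, the smallest of all member peaks and number 14 of the PC3 list. It overlapped LNCaP peaks with folds of 5.40 and 8.43. GCN1, the activator of the amino acid starvation kinase GCN2, had 4 LNCaP peaks with folds of 5.62 to 8.71 and no PC3 peak. EIF4G3, a longer paralog of EIF4G1 in genomic span, had no peak.

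One GCN1 peak (chromosome 12, 120155358 to 120155694, minus strand, fold 6.38) held a mature microRNA of the RefSeq table. Its sequence is given with the seed, bases 2 to 8, in capitals (GRCh38.p14, chr12:120155473-120155494, minus strand).
hsa-miR-4498: uGGGCUGGcagggcaagugcug
A peak of the host transcript and one of the microRNA precursor cannot be told apart at this resolution.

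Among the decay and small RNA members, 5 had peaks, in LNCaP only. UPF1, the helicase of nonsense-mediated decay, had a peak of 15314 bp (fold 5.43, p 2.69e-06) and a 51 bp peak near its start (5.36). SMG1, the kinase of UPF1, had 3 peaks (chromosome 16, minus strand). The 51 bp peak at 18852403 to 18852453 had a fold of 14.7 (p 9.58e-04), and the others had 5.80 and 4.68. SMG1 has partial copies, with 7 SMG1P genes in the gene table, and how shared reads were placed is not given in the sources used here, so its peaks are uncertain. CNOT1, the scaffold of the CCR4-NOT deadenylase, had 2 adjoining peaks (4.35 and 4.68). DROSHA, which cuts primary microRNA transcripts, had 2 peaks in the first 8.27% of the gene (4.41 and 4.39), and AGO2, the slicing Argonaute, had 2 (5.77 and 4.20). The AGO2 peak of fold 4.20 spans 29772 bp, the longest of all member peaks. It also overlaps the annotated genes LOC107986982 and ERICD, and the strand of AGO2 was not given. Of the 11 peaks of this group, the UPF1 peak of 15314 bp was the one under the largest PC3 p. XRN1, XRN2, SMG5, SMG6, TNRC6A, TNRC6B, TNRC6C and DICER1 had no peak, although TNRC6B spans 290975 bp.

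Of the 11 m6A members, only ZC3H13 and FTO held a peak, 1 each and in LNCaP only. The ZC3H13 peak (chromosome 13, 45969630 to 45969680, minus strand) was 51 bp long, had a fold of 4.84, and lay 84.5% of the way along the gene. The peak within FTO (chromosome 16, 54034021 to 54052634, 18614 bp, fold 6.76) was on the minus strand, opposite to the gene, and overlapped the annotated noncoding genes FTO-IT1 and LOC105371271. On the strand of the gene, therefore, 1 of the 11 members had a peak. METTL3, METTL14, WTAP, VIRMA, ALKBH5, YTHDC1, YTHDF1, YTHDF2 and YTHDF3 had no peak in either list. The count of 2 of 11 stands beside a like-length share of 6.82% in LNCaP, and the difference was not tested.

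Position along the gene was not part of how members were chosen. The gene span was divided into 3 equal parts in the direction of the gene. The last part held 27 of the 91 LNCaP member peaks (29.7%, 95% Wilson interval 21.3 to 39.7%), beside 47.2% of the 2447 peaks in other protein-coding genes. Of the 11 LNCaP member peaks at or under the PC3 p limit, the last part held 9.09%, namely the PRPF8 peak at 1661144 to 1661921 alone. The share for other genes at this limit was not computed. In PC3 the last part held 13 of 38 (34.2%, 21.2 to 50.1%), beside 58.9% of 967. The first part held 28.6% and 31.6% of member peaks, beside 19.0% and 12.6% of others. When each gene with a peak counted the same, the last part held 33.8% for members and 42.7% for other genes in LNCaP, and 32.9% and 59.8% in PC3. The intervals cover counting error only, peaks of 1 gene are not independent, and no test was made. In the splicing group the counts from first to last part were 17, 24 and 14 in LNCaP and 9, 9 and 8 in PC3. In transcription and 3′ end members they were 1, 2 and 9 in LNCaP and 1, 2 and 4 in PC3.

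**Figure D4:**
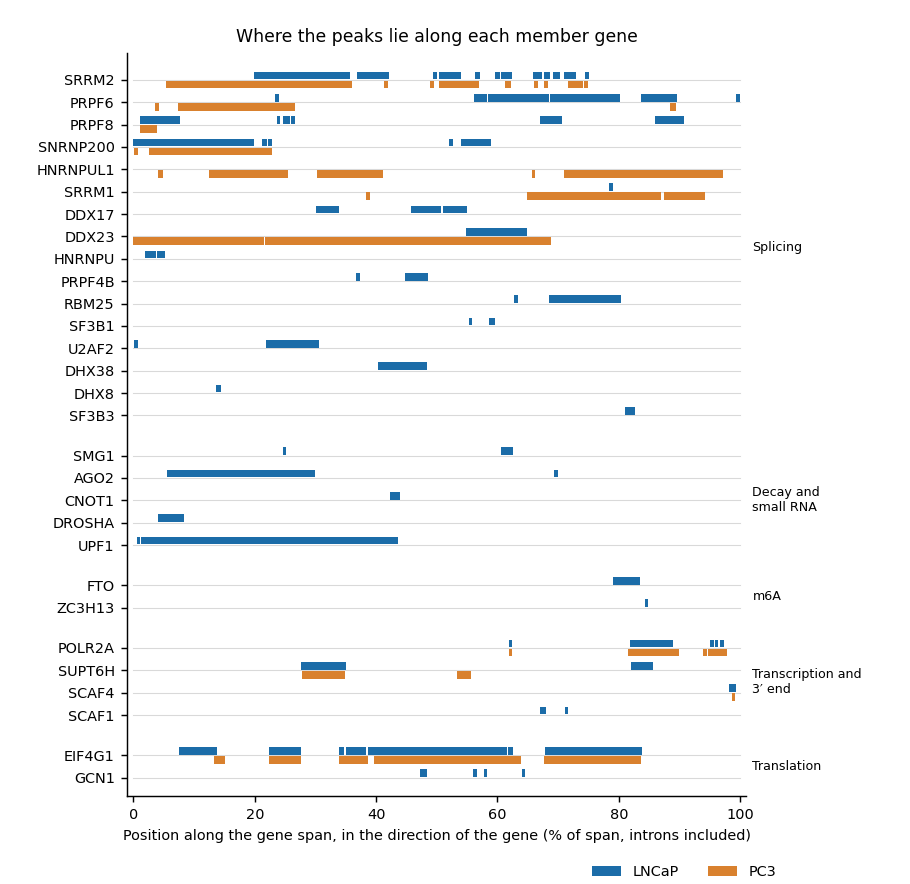
Each row is a member gene drawn from its start (0%) to its end (100%), introns included, with bars for the extent of LNCaP (blue) and PC3 (orange) peaks; peaks shorter than 0.6% are drawn at that width. Where the strand of the gene was not in the table used (SF3B3, CNOT1, AGO2 and SCAF4), the strand of the peak gave the direction. EIF4G1 and SRRM2 show bars of both lines at the same places, PRPF8 and PRPF6 show LNCaP bars with no PC3 bar beside them, and POLR2A bars crowd toward the end.

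Member peaks followed the strand of their gene. Where the strand of the gene was known, 83 of 84 LNCaP peaks and 37 of 37 PC3 peaks lay on it, the exception being the FTO peak, beside 96.6% and 96.5% of peaks in other genes. Within the first 500 bp of the gene began 7 LNCaP peaks on 5 members and 3 PC3 peaks on 3 members (7.69% and 7.89% of member peaks, beside 4.41% and 2.28% of others). LNCaP member peaks were short, with a median span of 235 bp beside 928 bp in other genes. Without SRRM2 their median was 416 bp. PC3 member peaks had a median of 936 bp beside 901 bp.

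The folds of member peaks spread around the median of each list. Their median was 5.36 in LNCaP (4.79 to 5.95, 95% binomial interval of the median) beside 5.26 in other genes, and 5.45 in PC3 (5.11 to 7.16) beside 5.79. Both intervals treat peaks of the same gene as independent. In LNCaP 46 of 91 member peaks were above the list's median, and in PC3 16 of 38. Members with a peak had a median of 2 peaks in LNCaP and 3 in PC3, beside 1 and 2 for other genes with a peak.

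Peaks of the members often met between the lines. Of the PC3 member peaks 26 of 38 (68.4%, Wilson interval 52.5 to 80.9%) overlapped the LNCaP list, by 1 bp or more on 1 strand, beside 43.3% of PC3 peaks in other genes. Of the LNCaP member peaks 37 of 91 (40.7%, 31.1 to 50.9%) met a PC3 peak, beside 20.8%. These intervals treat peaks as independent, although many lie on the same gene. Members were chosen with these lists in view, and the difference from other genes was not tested. Without SRRM2 the shares were 58.6% of PC3 and 32.0% of LNCaP member peaks. With 50% of both peaks required, the shares were 36.8% and 15.4%. Once LNCaP was held to the p limit of PC3, 13.2% of PC3 member peaks met a LNCaP peak. Of the 11 LNCaP member peaks left at that limit, 45.45% met a PC3 peak. For other genes the shares were not computed under these stricter settings. By gene, 10 of the 11 members with a PC3 peak also had a LNCaP peak (90.9%, beside 62.4% of other genes), and 10 of the 28 with a LNCaP peak had a PC3 peak (35.7%, beside 20.2%). The overlapping peaks formed 39 pairs of peaks on 10 genes. The PC3 fold was the higher in 28 pairs and the lower in 11, where a peak of 1 list that met several of the other counts in each pair. Most of the 28 lay on SRRM2 and EIF4G1, while on PRPF8, SRRM1 and SCAF4 the LNCaP fold was the higher. The median folds of the whole lists also differ, at 5.26 in LNCaP and 5.74 in PC3. Pairs in other genes were not counted, and the direction was not tested.

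Other genes of the same pathways, which are not members, were listed for comparison. These genes too were chosen with earlier results of these data known, and their shares were not tested. Of these 116 genes, 27 had a peak in LNCaP (23.3%, like-length 5.84%), 13 in PC3 (11.2%, like-length 2.04%) and 11 in both. The splicing genes among them had one in 15 of 35 cases in LNCaP and 5 of 35 in PC3 (like-length 4.70% and 1.51%). Decay and small RNA genes had one in 3 of 36 and 1 of 36 (like-length 7.0% and 2.59%). The m6A genes had one in 3 of 15 and 1 of 15 (6.68% and 2.25%). Transcription and 3′ end genes had one in 3 of 20 and 2 of 20 (5.50% and 1.99%), and translation genes in 3 of 10 and 4 of 10 (5.10% and 1.73%). The largest folds among them were 87.7 on ACIN1 (chromosome 14, 23064385 to 23064485, minus strand), a splicing-associated protein, and 20.7 on EFTUD2 in LNCaP. In PC3 they were 13.4 on PRRC2A (chromosome 6, 31632309 to 31632909, plus strand), a reported m6A reader, and 9.27 on SF3A1 (chromosome 22, 30342238 to 30342288, minus strand), a U2 subunit. PRRC2A had 12 peaks in LNCaP and 6 in PC3, more than any of the 11 m6A members.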

How the data were processed

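METTL3 RIP-seq libraries of LNCaP and PC3, immunoprecipitate and input in 2 replicates each, had been reduced by the authors to 1 peak list per line. Per the submitters' processing notes, fastp, STAR 2.5.3a, bedtools and deepTools were used and the build was hg38; the peak caller, its filters and the handling of replicates are not given in the sources used here. Per the file headers, each deposited row gives a linear fold enrichment (a ratio), a p-value, an FDR, a score and the position and span of a peak. The score was not used. The lists hold no values per sample, so the planned test of immunoprecipitate against input was not run.

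Peaks were assigned with Python 3.11.15, pandas 2.3.3 and NumPy 2.4.6 to the RefSeq gene spans of GRCh38.p14 (19974 protein-coding genes on chromosomes 1 to 22 and X) and checked on simulated peaks. Gene strand came from the RefSeq promoter table, which held 47 of the 54 members; otherwise the strand of the peak was used. Bases came from the RefSeq promoter and microRNA tables. No exon annotation or protein sequence was used, so peaks are not placed in exons, introns or UTRs. Members, role groups and lists were chosen with earlier results of these data known. The text names all members; by the rule, coordinates go to members in both lists, m6A members with a peak and the 5 members with the largest fold in each list, and for members with many peaks to those with the largest folds or an overlap. Alternatives changed the p, fold and FDR admitted, the assignment, the strand, the span, the joining of adjacent peaks and the width of like length.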

Additional observations from a re-analysis of the deposited data

How the results depend on the processing

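No paired analysis was possible because the lists hold no values per replicate, and leaving out single replicates was equally out of reach. Like length by protein could not be computed without a protein table. Of 134 alternative values, 79 of the comparisons and 42 of the role counts stayed within 1.5 times (counts) or within the 95% interval (shares and medians). These totals include values fixed in advance. For 8 PC3 values there was no way to change under their own largest p. PC3 decay and m6A counts were 0, so stricter filters could not lower them. No member peak was held by more than 1 protein-coding gene, so requiring exactly 1 left all member values as they were. Holding LNCaP to the p limit of PC3 moved it most: members with a peak fell from 28 to 7, member peaks from 91 to 11, the last-part share from 29.7% to 9.09%, the like-length share from 7.31% to 1.78%, and the overlap among PC3 member peaks from 68.4% to 13.2%, which follows from the fewer LNCaP peaks. The overlap among LNCaP member peaks was 40.7% in the main setting and 45.45% at this limit. Splicing members with a LNCaP peak were then 5, decay members 1 and m6A members 0. With 50% of both peaks required, overlap was 36.8% of PC3 and 15.4% of LNCaP member peaks. Only on the strand of the gene, decay members with a LNCaP peak were 3, since CNOT1 and AGO2 have no strand in the table, and m6A members 1. A span of at most 10000 bp also left 1 m6A member. Chosen after seeing the data, the settings without SRRM2 and with equal weight per gene moved nothing past these limits (last-part share 30.7% and 34.5% without SRRM2). Depth is unknown, so how far it limits the members without a peak cannot be said.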

Other observations

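A peak on the strand opposite to PRPF8 crossed its annotated start in both lists. It covered chromosome 17, 1684750 to 1684950, on the plus strand in LNCaP, with a fold of 6.68 and a p of 8.17e-12, and 1684750 to 1684900 in PC3, with a fold of 4.75 and a p of 9.66e-28. The minus-strand peaks at the same start, on the strand of PRPF8, had folds of 6.04 and 3.85. In both lists the opposite-strand peak had the smaller p.

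A minus-strand peak of 27778 bp in PC3 (chromosome 19, 41302638 to 41330415, fold 3.95) overlapped the end of HNRNPUL1, which lies on the plus strand, and also overlapped CCDC97 and TGFB1.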
